A study of Homo sapiens with 8 samples.

Results

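Broad m6A peaks, here peaks of 500 bp or more, made up 1503 of the 53021 peaks called in RNA bound to chromosomes of HEK293T cells. They numbered 722 of 23937 peaks (3.02%) in METTL3-/- cells and 781 of 29084 peaks (2.69%) in the parental cells. The members were selected on 1 value, the end minus the start of each peak in its own list, so nothing is read from their length, and the fold, significance and summit that come from the same peak call are given as description. HEK293T is an established human embryonic kidney line. In the knockout both copies of METTL3 are labelled as lost, and how many clones it stands for is not stated in the labels. The parental line is the wild type. The chromosome fraction of both was isolated, residual DNA and ribosomal RNA were removed from its RNA, and part of it was precipitated with an antibody kit for N6-methyladenosine (IP) beside an input. Each genotype has 2 IP and 2 input samples, and each peak list stands for both replicates of a genotype. No list holds a value per replicate, so no difference between the genotypes could be set against replicate spread. The deposited lists hold no expression values against which the cell type could be checked. A knockdown of HAT1, also named in the design text, is not analysed here.

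N6-methyladenosine is the most common internal mark of messenger RNA, written cotranscriptionally by a complex whose catalytic subunit is METTL3, mostly on an adenosine within a short consensus of which GGACT is a common form. In spliced mRNA it is known to gather in long internal exons and around the stop codon. In RNA still bound to chromatin it also lies in introns, in transcripts of repeats and in RNA made near gene starts. The antibody pulls down fragments longer than the modified base, so a peak spans the stretch over which the fragments pile up, and its summit is the base with the highest pile. Fold below is the authors' ratio, on a linear scale, of IP to local input at the summit base, and −log10 q is their significance of the same peak. Folds of the knockout and wild type lists have their own scales and are not compared with each other.

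The sequences of some broad peaks could be shown from RefSeq tables of the build GRCh38.p14, to which the hg38 positions of the lists belong. Of broad peaks, 1 of 722 in the knockout and 1 of 781 in the wild type list overlapped a microRNA hairpin on its own strand. Of narrower peaks, 1 of 23215 knockout and 4 of 28303 wild type ones did. On the opposite strand only, 2 broad knockout peaks and 1 narrower wild type peak met one. A longer peak overlaps more by its own length, and these counts are too small to set broad peaks apart. The broad peak on the hairpin's strand was at the same site in both lists, within DNAJC5 on the plus strand of chromosome 20. DNAJC5 encodes a chaperone of synaptic vesicles. The knockout peak ran from 63919526 to 63920143 (618 bp, fold 4.84, −log10 q 18.6) and the wild type peak from 63919537 to 63920160 (624 bp, fold 10.1, −log10 q 32.7). Their summits, at 63919962 and 63919953, both lay downstream of the last hairpin. Each peak covered the whole of the hairpins MIR941-3, MIR941-4 and MIR941-5, which are the same in all 72 bases and give 1 mature microRNA. The hairpin is printed with the mature microRNA in capitals, and the mature microRNA with its seed (bases 2 to 8) in capitals, because 3 copies of it lie under 1 broad peak. Reads from identical copies cannot be placed among them with certainty, and the aligner's treatment of them is not stated in the labels.
MIR941-3, chr20:63919561-63919632, plus strand: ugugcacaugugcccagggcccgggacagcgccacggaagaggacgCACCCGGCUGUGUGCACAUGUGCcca
hsa-miR-941: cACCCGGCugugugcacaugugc

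Broad peaks also reached annotated starts of genes on their own strand. RefSeq windows run from 250 bases before a gene's start to 50 after it. Overlaps with them were counted for broad peaks only, and a longer peak reaches one more often by its length alone. Such windows were met at 7 genes in the knockout list and at 16 genes in the wild type list. At 4 of these genes they were met in both lists. Of those 4, LOC100506076, APPAT and LOC101928032 are annotated as long noncoding RNAs. The window of APPAT is at the upstream end of the gene (97424027), while those of LOC100506076 (gene at 97278717 to 97291878) and LOC101928032 (gene at 1337274 to 1378476) are at starts inside the gene. The window of LOC100506076, on the plus strand of chromosome 2, is printed below with the bases that lay inside the broad peaks of both lists in capitals. The window of APPAT, on the minus strand at 97423978 to 97424277, was identical to it in 300 of 300 bases. The broad peaks at the LOC100506076 window had a fold of 1.64 in the knockout and 4.30 in the wild type list. The window of LOC101928032, on the minus strand of chromosome X, is shown because it is nearly all purine, a choice made after its sequence was read. In it 56 of 300 bases lay inside the broad peaks of both lists and are in capitals.
LOC100506076, chr2:97283685-97283984, plus strand: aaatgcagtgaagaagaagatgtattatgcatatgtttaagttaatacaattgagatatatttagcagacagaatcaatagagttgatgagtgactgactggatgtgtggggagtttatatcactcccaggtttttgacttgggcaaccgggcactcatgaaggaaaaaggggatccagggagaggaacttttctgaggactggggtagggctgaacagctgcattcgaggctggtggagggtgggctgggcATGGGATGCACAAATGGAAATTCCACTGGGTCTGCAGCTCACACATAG
LOC101928032, chrX:1359426-1359725, minus strand: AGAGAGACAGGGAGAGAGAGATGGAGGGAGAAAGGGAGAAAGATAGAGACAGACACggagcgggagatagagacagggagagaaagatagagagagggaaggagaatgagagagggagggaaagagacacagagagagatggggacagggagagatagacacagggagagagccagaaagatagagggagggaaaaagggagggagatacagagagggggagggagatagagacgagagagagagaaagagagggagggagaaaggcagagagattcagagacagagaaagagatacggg

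In the LOC101928032 window 89.3% of bases were A or G on the gene's strand, against a median of 50.3% over 35116 such windows, of which 3 had a higher share. Its broad peaks ran from 1359453 to 1360580 in the knockout list (1128 bp, fold 20.9) and from 1359670 to 1360226 in the wild type list (557 bp, fold 5.29). The letters GGACT were searched on both strands of each window. They occurred once on the gene's strand of the LOC100506076 window, outside the capitals, and on neither strand of the LOC101928032 window, while 25.3% of the 35116 windows held them on the gene's strand and 44.2% on either strand. A match is only a string of letters and does not show a modified site.

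Most peaks of both lists were close to the shortest length present, 200 bp. The median length was 579 bp for broad and 208 bp for narrower knockout peaks, and 582 bp for broad and 204 bp for narrower wild type peaks. Broad peaks reached 2565 bp in the knockout list and 2371 bp in the wild type list, and held 7.56% and 6.76% of all bases under peaks of those lists. Median −log10 q was 16.2 for broad against 8.95 for narrower knockout peaks, and 16.3 against 9.44 in the wild type list. Their median fold was 8.23 against 7.06 in the knockout list and 7.82 against 7.29 in the wild type list. Folds of broad peaks were more spread out, as 10.1% of them had a fold of 4 or less against 5.65% of narrower knockout peaks, with 12.9% against 6.42% in the wild type list. Folds above 20 occurred in 17 broad knockout peaks (2.36%, against 0.573% of narrower ones) and in 14 broad wild type peaks (1.79%, against 0.445%). On the plus strand lay 59.97% of broad and 55.3% of narrower knockout peaks, and 60.6% of broad and 53.1% of narrower wild type peaks. Peaks just inside and just outside the limit had similar median folds. The 62 knockout peaks of 500 to 509 bp had a median fold of 8.29 and the 66 of 490 to 499 bp one of 7.80. In the wild type list, 63 peaks of 500 to 509 bp had a median fold of 7.65 and 100 peaks of 490 to 499 bp one of 7.92.

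The question of which broad peaks recurred in the other genotype was asked at the summit, because whether that base is covered in the other list does not use the length of the peak's own call. In the knockout list 356 of 722 broad peaks (49.3%, 95% Clopper-Pearson interval 45.6 to 53.02) had their summit inside a wild type peak on the same strand, against 22.5% (21.9 to 23.02) of narrower peaks. In the wild type list 376 of 781 broad peaks (48.1%, 44.6 to 51.7) had their summit inside a knockout peak, against 18.3% (17.85 to 18.75) of narrower peaks. Over all peaks the shares were 23.3% in the knockout list and 19.1% in the wild type list. Broad summits were thus covered more often than narrower ones by 26.8 and 29.9 percentage points (2-sided Fisher's exact tests, adjusted p = 3.40e-53 and 2.09e-76). Peaks of a list are not replicates, so these p-values describe the peaks of these lists only. The share rose with length on both sides of the limit. Among knockout peaks it was 10.1% at 200 bp, 37.9% at 400 to 499 bp, 45.0% at 500 to 599 bp and 65.5% at 800 bp or more. Among wild type peaks the same classes had 7.76%, 32.6%, 44.1% and 63.0%. Against peaks of 300 to 499 bp alone, a comparison added after seeing the data, the difference was smaller, 13.7 points in the knockout list and 17.6 in the wild type list (Fisher's exact tests, adjusted p = 3.83e-11 and 3.11e-20).

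**Figure D1:**
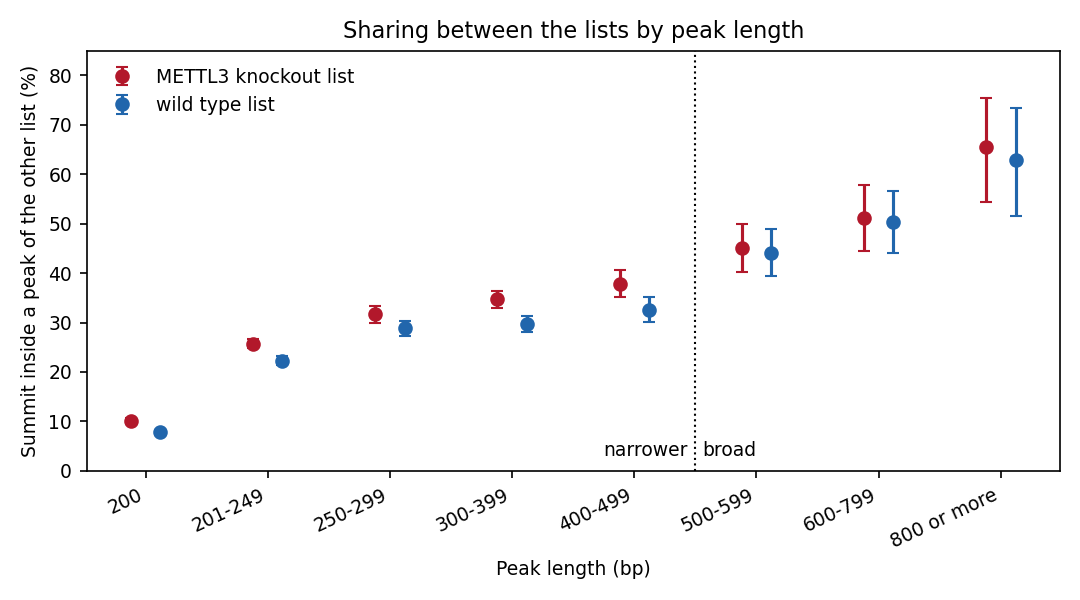
Share of peaks (%) whose summit lies inside a peak of the other list on the same strand, by length class in bp, for the METTL3 knockout list (red) and the wild type list (blue). Bars are 95% Clopper-Pearson intervals, and the dotted line marks the limit of 500 bp: the share climbs from 10.1% and 7.76% at 200 bp to 65.5% and 63.0% at 800 bp or more, and rises in each successive class.

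Significance moved with length, so sharing was also read within classes of −log10 q. In all 5 classes of both lists the broad peaks had the higher share. At −log10 q of 5 or less the counts were small, with 52.8% of 36 broad knockout peaks covered against 9.86% of narrower ones, and 29.0% of 31 broad wild type peaks against 9.66%. At 5 to 10, 28.5% of 151 broad knockout peaks were covered against 14.3% of narrower ones, and 36.0% of 150 broad wild type peaks against 10.4%. At 20 to 40 the shares were 61.2% of 206 broad knockout peaks against 50.8%, and 60.4% of 235 broad wild type peaks against 42.3%. Above 40 the intervals of broad and narrower peaks overlapped in both lists, with 88.2% (78.1 to 94.8) of 68 broad knockout peaks against 76.6% (72.2 to 80.7) and 81.2% (69.5 to 89.9) of 64 broad wild type peaks against 71.8% (67.8 to 75.6). Sharing did not follow fold in the same way, and was lowest at a fold of 8 to 12 in both lists. In the knockout list 67.1% of the 73 broad peaks with a fold of 4 or less were covered, against 40.8% of those with a fold of 8 to 12. The wild type list had 59.4% of 101 and 38.2% in these fold classes. At a fold of 12 to 20 the share was 49.2% in the knockout and 48.4% in the wild type list, and above 20 it was 88.2% of 17 knockout and 57.1% of 14 wild type peaks.

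**Figure D2:**
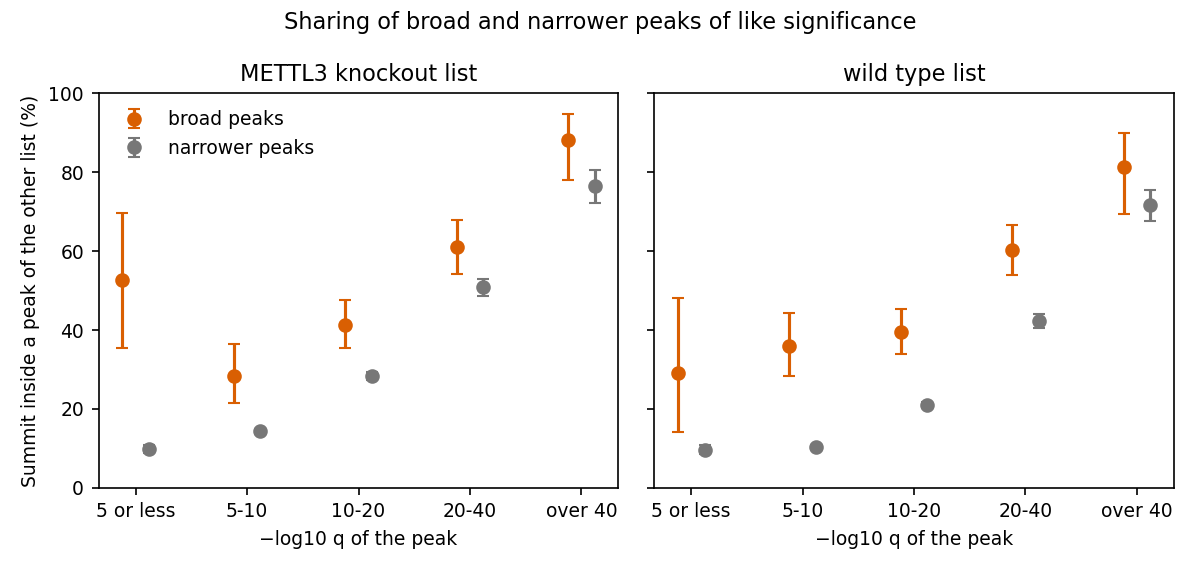
Share of peaks (%) with the summit inside a peak of the other list, by −log10 q class, for broad (orange) and narrower (grey) peaks of the METTL3 knockout list (left) and the wild type list (right), with 95% Clopper-Pearson intervals. Broad peaks lie above narrower ones in every class, and the intervals overlap in the class over 40 of both lists and are widest at 5 or less.

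A broad peak often met a narrower one. Counting any overlap on the same strand, from 1 bp, 415 broad knockout peaks (57.5%, 53.8 to 61.1) met a wild type peak and 446 broad wild type peaks (57.1%, 53.6 to 60.6) met a knockout peak, against 23.8% of narrower knockout and 19.4% of narrower wild type peaks. A longer peak overlaps more by its own length, so this share uses what chose the members. The peak met was itself broad for 150 knockout peaks (20.8%) and 153 wild type peaks (19.6%), against 1.40% of narrower knockout and 1.05% of narrower wild type peaks. Where several were met the longest was taken, and its median length was 422 bp for knockout peaks and 396 bp for wild type peaks. More than 1 peak of the other list lay under 38 broad knockout and 36 broad wild type peaks, and in 35 and 33 of these cases all of them were shorter. In all, 156 pairs were broad in both lists. Within them the knockout peak was longer in 75 and the wild type peak in 81, and the median ratio of knockout to wild type length was 0.994 (quartiles 0.862 and 1.19). Both peaks of a pair had to be 500 bp or more, which holds this ratio near 1 by the choice of members. The median distance between their summits was 84 bp, against 27 bp in pairs of narrower peaks, and the lower quartile was 9 bp in both. Longer peaks leave more room between summits, so this distance too uses what chose the members. The median knockout peak of a pair was 647 bp long in broad and 238 bp in narrower pairs.

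**Figure D3:**
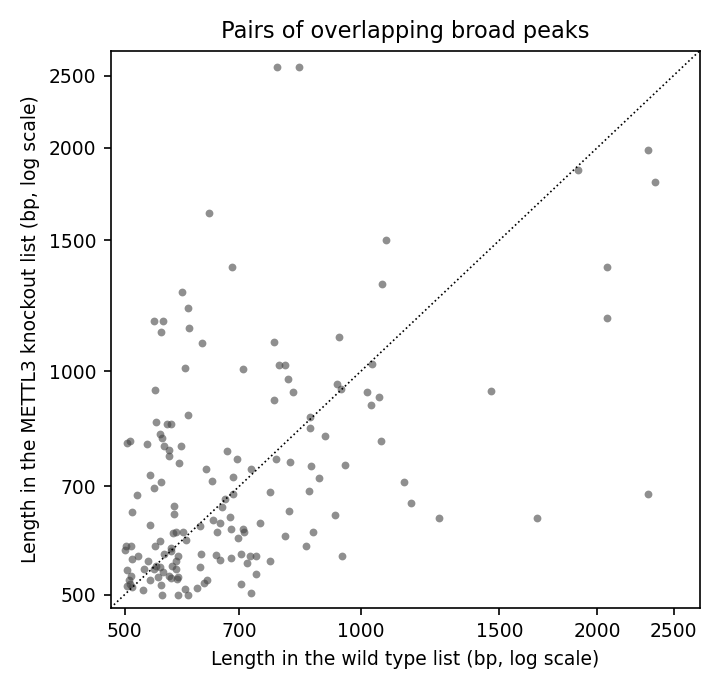
Length in bp (log axes) of 156 overlapping pairs of broad peaks in the METTL3 knockout list (vertical) and the wild type list (horizontal), 1 point per pair, with equal length as the dotted line. Points fall on both sides of the line, 75 with the longer peak in the knockout and 81 with the longer peak in wild type. Both lengths are 500 bp or more by the choice of members.

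The summit seldom lay in the middle of a broad peak. Read in the direction of transcription, the middle 20% of the peak's length held 12.2% of broad against 43.7% of narrower knockout summits, and 11.7% of broad against 44.0% of narrower wild type summits. Broad summits gathered on either side instead. The part from 20% to 40% of the length held 30.3% and that from 60% to 80% held 34.3% of them in the knockout list, with 34.2% and 34.6% in the wild type list. This was not a sudden change at 500 bp. The middle 20% held 71.2% of knockout and 74.0% of wild type summits at 300 to 399 bp, but 18.6% and 17.4% at 400 to 499 bp and 8.23% and 5.41% at 500 to 599 bp. In longer peaks it was higher again, 16% and 20.3% at 600 to 799 bp and 21.4% and 18.5% at 800 bp or more. In bases, the median distance of the summit to the nearer edge was 147 and 149 bp for peaks of 300 to 399 bp, 132.5 and 131 bp at 400 to 499 bp, 156 and 157 bp at 500 to 599 bp, 174 and 180 bp at 600 to 799 bp, and 236.5 and 282 bp at 800 bp or more (knockout and wild type lists). A second peak of the same list and strand lay within 1000 bp of 26.7% of broad against 12.3% of narrower knockout peaks, and of 24.8% of broad against 12.3% of narrower wild type peaks.

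**Figure D4:**
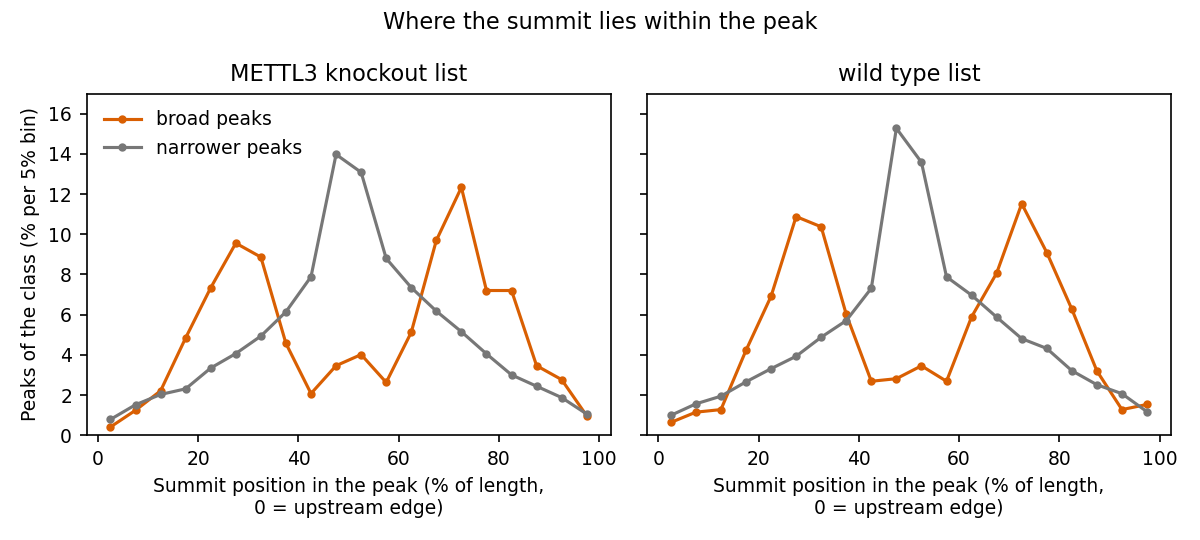
Share of peaks (%) per bin of 5% of peak length, by the position of the summit from the upstream edge (0%) to the downstream edge (100%), for broad (orange) and narrower (grey) peaks of the METTL3 knockout list (left) and the wild type list (right). Narrower peaks have 1 maximum at the middle, and broad peaks have 2, one in each of the parts from 20% to 40% and from 60% to 80%.

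In relation to genes, most broad summits lay in the body of a protein-coding gene. This held for 550 broad knockout peaks (76.2%, 72.9 to 79.2) against 71.4% of narrower ones and for 625 broad wild type peaks (80.03%, 77.1 to 82.8) against 73.4% (2-sided Fisher's exact tests, adjusted p = 0.00997 and 0.000104). No coding or long noncoding gene body held 93 broad knockout summits (12.9% against 17.3% of narrower ones) and 90 broad wild type summits (11.5% against 15.3%, Fisher's exact tests, adjusted p = 0.00472 and 0.00690). Of these broad summits, 21 in the knockout and 20 in the wild type list lay in an annotated pseudogene. Narrower summits in pseudogenes were not counted, so this does not set broad peaks apart. Both differences depended on which peaks were compared. Against peaks of 300 to 499 bp they were lost, with the exact test's adjusted p = 0.962 in the knockout and 0.0995 in the wild type list for coding genes. Among the 50% of peaks with the higher −log10 q, the exact test's adjusted p for coding genes was 0.860 in the knockout and 0.0574 in the wild type list. Long noncoding genes alone held 62 broad knockout summits (8.59% against 6.63%, exact test, adjusted p = 0.0702) and 49 broad wild type summits (6.27% against 6.76%, adjusted p = 0.774). Where the gene's strand was known and only 1 gene was present, 96.5% of broad knockout and 96.8% of broad wild type peaks were on its strand, against 92.5% and 93.1% of narrower peaks. Position along a coding gene was read for 458 of the broad knockout and 512 of the broad wild type summits, and was not tested. The last 20% of the gene's length held 26.6% of broad against 21.4% of narrower knockout summits, and 25% against 20.7% in the wild type list. Exons are not given in the gene table used here, so a summit in an intron could not be told from one in an exon.

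Broad peaks at gene starts were few. Within 500 bp of the upstream end of a gene lay 7 broad knockout summits (0.970%, 0.391 to 1.99, against 1.87% of narrower ones) and 18 broad wild type summits (2.31%, 1.37 to 3.62, against 2.16%), and neither difference passed Fisher's exact test (adjusted p = 0.134 and 0.774). The knockout difference passed with the peaks of higher −log10 q only and against peaks of 300 to 499 bp only (exact tests, adjusted p = 0.0340 and 0.0158). Whether the knockout and wild type shares differ was not tested. In the knockout list the highest fold of these was 16.7 at MDFIC, which shares a domain with an inhibitor of MyoD-family transcription factors, where the summit lay 166 bp after the gene's start and a wild type peak of 430 bp covered it. After it came a peak in CSPP1 near an end of ARFGEF1 (12.7), SAP30L-AS1 (8.60), POLR1G, a subunit of RNA polymerase I (4.16), LINC00342 (4.10) and the mitochondrial ND6 (1.74). The table of gene starts does not give the strand of ARFGEF1, LINC00342 and ND6, 3 of the 7 knockout peaks, nor for 5 of the 18 wild type peaks, so the upstream end there was taken from the strand of the peak. ND6 is known to be encoded on the opposite strand to its peaks, so that end is its downstream one. In the wild type list the highest folds were 19.96 at DHX34, an RNA helicase of nonsense-mediated decay, 19.5 at FBXL14, a ubiquitin ligase subunit, and 14.4 at MYO9B, an unconventional myosin. KDELR1 (13.2), LOC112268470 (11.9) and C10orf62 (11.5) followed, with summits up to 378 bp upstream of the annotated start, the last 2 inside HSPA4L and HOGA1. Of these 6 wild type peaks only that at DHX34 was covered in the knockout list. Downstream gene ends had 9 broad knockout summits (1.247% against 1.18%) and 7 broad wild type summits (0.896% against 1.42%), which did not pass the exact test either (adjusted p = 0.860 and 0.372). With genes of given strand only, a setting added after seeing the data, 0 of 781 broad wild type summits were at a downstream end, which allows a share of up to 0.384%, against 0.989% of narrower ones (exact test, adjusted p = 0.00329).

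Broad peaks were spread thinly over many genes. They lay in 559 of 7501 genes with any knockout peak (7.45%) and in 650 of 8652 genes with any wild type peak (7.51%). Most of these genes had 1 broad peak, 496 in the knockout and 604 in the wild type list. A gene with more peaks more often had a broad one, as 2.49% of knockout genes with 1 peak did, against 41.5% of those with 11 or more, and 2.69% against 32.7% in wild type. Both lists had a broad peak in 181 genes. A further 378 had one in the knockout list only, and 338 of these (89.4%) had some wild type peak, against 73.4% of all genes with a knockout peak. Of the 469 with one in the wild type list only, 394 (84.01%) had some knockout peak, against 63.7% of all genes with a wild type peak. Genes with more peaks more often had a broad one, as given above, and the part of this in these shares was not tested.

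NSUN6, which encodes a cytosine-5 RNA methyltransferase, held the longest peaks assigned to 1 gene in both lists. It had 4 broad peaks among 9 in the knockout list and 4 among 10 in the wild type list, all on its own, minus strand of chromosome 10. In the knockout list the longest ran from 18570921 to 18572904 (1984 bp, fold 8.49) and from 18564978 to 18566776 (1799 bp, fold 10.3). In the wild type list the matching peaks ran from 18571073 to 18573389 (2317 bp, fold 2.81) and from 18564347 to 18566717 (2371 bp, fold 19.1). At the first of these sites the summits of the lists were 3 bp apart, and at the second 1066 bp. All 4 broad knockout summits in NSUN6 lay in a wild type peak, and 2 of the 4 broad wild type summits, those of the 2 longest, lay in a knockout peak. The other broad wild type peaks, of 831 and 746 bp, lay between the long ones and met no knockout peak.

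**Figure D5:**
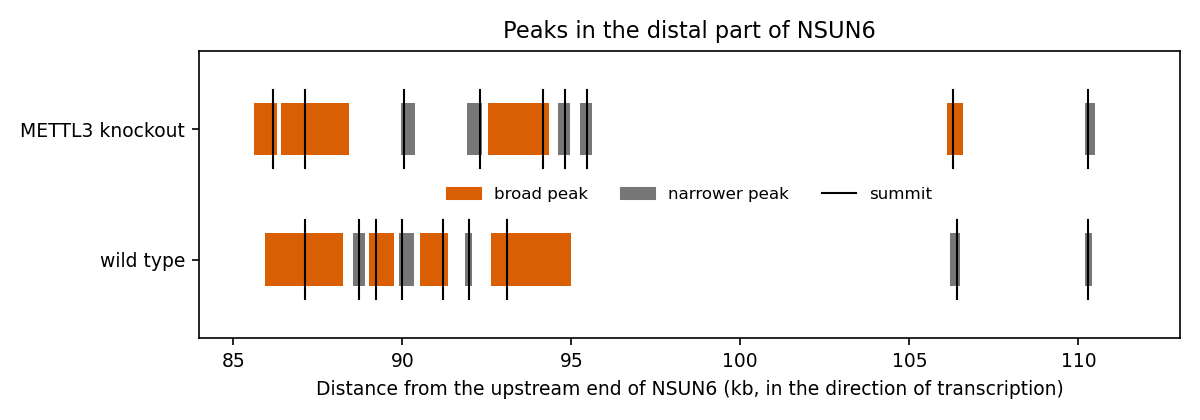
Peaks in the distal part of NSUN6, by distance in kb from its upstream end, in the METTL3 knockout list (upper row) and the wild type list (lower row). Broad peaks are orange, narrower ones grey and black lines are summits; the long peaks fall on the same stretches in both lists, and 1 narrower wild type peak at 55.7 kb is outside the plot.

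Other genes with several broad peaks included DNAH14, an axonemal dynein heavy chain, with 6 among 37 knockout peaks and 4 among 39 wild type peaks. Of its 6 broad knockout peaks, 5 had their summit in a wild type peak, as did all 4 broad wild type peaks in the knockout list. The summits at 225116033 in the knockout and 225116034 in wild type were 1 bp apart, under peaks of 769 and 570 bp. GPHN, which anchors inhibitory receptors at the synapse, had 4 broad knockout and 3 broad wild type peaks, and only 1 of each was covered in the other list. ZC3H12B, of a family of RNA-binding nucleases, had 3 in each list, at 6 different places, and none of its broad peaks met a broad peak of the other list. Its knockout summit at 65080125 and its wild type summits at 65100538 and 65179242 were covered by narrower peaks of the other list. CENPF, a kinetochore protein, had 3 broad knockout and 2 broad wild type peaks, and all 5 were covered. LINC01515, a long noncoding RNA, also had 3 and 2, all covered. NIPBL, the loader of cohesin, had 2 broad knockout and 3 broad wild type peaks, and 1 knockout peak of 1167 bp spanned 2 wild type peaks of 545 and 560 bp. PCDH7, a protocadherin, had 2 and 3. AKAP9, a scaffold of the centrosome and Golgi, and RABGAP1L, a Rab GTPase-activating protein, each had 3 in the knockout and 1 in the wild type list.

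After NSUN6, the longest knockout peaks in 1 gene lay in LOC107985915 (1936 bp, fold 14.7, no wild type peak met) and in BDP1, a subunit of the RNA polymerase III initiation factor TFIIIB (1501 bp, fold 4.86). ENOX2 (1426 bp), ZNF782 (1413 bp), RILPL1 (1380 bp), ANKRD12 (1309 bp), NUS1 (1215 bp), YLPM1 (1214 bp), NIPBL (1167 bp), STOX2 (1143 bp) and RBBP6 (1123 bp) completed the 12. At RBBP6, a ubiquitin ligase that takes part in mRNA 3′ processing, the summit lay 635 bp before the downstream gene end under a fold of 20.1. In the wild type list RILPL1, a regulator of ciliary cargo, came after NSUN6 with 2059 bp and a fold of 12.1. It was followed by ERCC6L2 (1257 bp), CPLANE1 (1211 bp), PCLO (1136 bp), PPIG (1135 bp), COMMD10 (1122 bp), RRP1B (1095 bp), VPS45 (1090 bp), BDP1 (1075 bp), ANKRD12 (1062 bp) and NR3C1, the glucocorticoid receptor (1059 bp). Of these 24 peaks, the knockout one in LOC107985915 and the wild type one in RRP1B, a nucleolar protein, met no peak of the other list. NSUN6, RILPL1, BDP1 and ANKRD12 were in both sets of 12.

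Among pairs broad in both lists the longest after NSUN6, RILPL1, BDP1 and ANKRD12 lay in PVT1, ANKRD36, NSRP1, CALD1, EOLA1-DT and DDX20. PVT1 is a long noncoding RNA next to MYC, and its peaks were 1021 bp in the knockout and 1032 bp in the wild type list, with summits 13 bp apart. CALD1, the actin-binding protein caldesmon, had peaks of 960 and 933 bp with summits 6 bp apart. NSRP1, a splicing regulator of nuclear speckles, had 1111 and 938 bp with summits 4 bp apart. In DDX20, a helicase of the SMN complex, they were 900 and 1031 bp long with summits 303 bp apart. EOLA1-DT, a divergent noncoding transcript, had 924 and 1053 bp and summits 26 bp apart. ANKRD36 had 947 and 943 bp and summits 9 bp apart.

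METTL3 and HAT1, both named in the series' text, had no broad peak in either list. METTL3 had 0 peaks in the knockout list and 2 narrower ones, of at most 209 bp, in the wild type list. HAT1 had 3 narrower knockout peaks of at most 251 bp and 2 narrower wild type peaks of at most 237 bp. Of the m6A writer genes, 1 of 8 with a knockout peak had a broad one, and 3 of 9 with a wild type peak. ZC3H13, a scaffold of the writer complex, had one in both lists at the same place, of 555 bp in the knockout (fold 9.82) and 581 bp in wild type (fold 11.1), with summits at 45975543 and 45975524. CBLL1 (938 bp) and RBM15B (507 bp), also partners of the complex, had theirs in wild type only, the second with a knockout peak of 425 bp over its summit. None of 12 reader and eraser genes with a knockout peak and 2 of 11 with a wild type peak had a broad one, in FTO, a demethylase (533 bp, not covered in the knockout list), and YTHDC2, a reader with helicase activity (567 bp, covered by a peak of 433 bp).

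Histone acetyltransferase genes had broad peaks at 2 of 17 genes with a knockout peak and at 2 of 21 with a wild type peak. KAT6A had 1 of 746 bp in the knockout list that lay within a wild type one of 864 bp, and a further wild type one of 563 bp. KAT6B (596 bp, knockout) was not covered in wild type, and TADA2B, an adaptor of the complexes (750 bp, wild type, fold 19.0), was covered in the knockout list. Of genes for H3K9 methyltransferases and demethylases, 1 of 10 in the knockout list (JMJD1C, 519 bp) and 3 of 12 in the wild type list (JMJD1C, 686 bp, KDM4C, 543 bp, and SETDB1, 659 bp) had one. The JMJD1C peaks lay at different places. In a list of 17 long noncoding RNAs drawn up as chromatin-retained, 3 of 10 with a knockout peak (FTX, JPX and PVT1) and 2 of 8 with a wild type peak (JPX and PVT1) had one. Whether each member of that list stays on chromatin was not checked. JPX, an activator of XIST, had peaks of 806 bp (fold 19.7) in the knockout and 508 bp (fold 12.3) in wild type, with both summits at 73999842. Beside the 7.45% and 7.51% of all genes with a peak, these counts are too small to set any of the lists apart.

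Some broad peaks outside genes lay in sequence that is hard to place, and the items in this and the next paragraph were chosen after their values were seen. At the numbered start of chromosomes 1, 3, 4, 5, 7, 10, 12 and 18, each list had 1 peak, and all 8 were on the minus strand and covered by the peak of the other list. The knockout peaks were broad on chromosomes 1 (520 bp), 3 (524 bp) and 5 (1863 bp), and the wild type peaks on chromosomes 3 (637 bp) and 5 (1891 bp). Those on chromosome 5 ran from 10026 to 11888 in the knockout and from 10022 to 11912 in wild type, with summits 1 bp apart and −log10 q of 270.0 and 335.8. On the plus strand, the last peak of chromosome 1 was broad in both lists (572 and 573 bp), as was the last of chromosome 22 (683 and 687 bp), each covered by the other. In the knockout list the last peaks of chromosomes 6 (523 bp, not covered) and 19 (500 bp, covered) were broad too. Both lay in gene bodies, that on chromosome 19 in the long noncoding gene MZF1-AS1. A last peak is only the last one in the list, and its distance to the chromosome's end was not measured. The last peaks of chromosomes 8 and 11 were on the minus strand in both lists, and those of the other autosomes and X on the plus strand. Telomeric repeat-containing RNA is known to be transcribed toward the chromosome's end, so on the minus strand at the numbered start and on the plus strand at the other end. Whether any of these peaks belong to it was not tested. The highest fold of any broad peak in both lists was on the plus strand of chromosome 4 in no coding or long noncoding gene, at 190122434 to 190123070 in the knockout (48.0) and 190122432 to 190123112 in wild type (52.6).

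Around LOC100506076 and APPAT on chromosome 2, ANKRD36 included, the knockout list had 12 broad peaks and the wild type list 9, and all of them were covered in the other list. Of peaks of any length there, 23 of 45 knockout and 27 of 42 wild type ones were covered. The longest knockout peak of all, from 97272791 to 97275355 (2565 bp), was among the broad ones, and 3 wild type peaks met it. The printed start windows of both noncoding RNAs, that of LOC100506076 inside the gene, are identical, as stated above, and face each other across a common centre. When positions were mirrored about that centre, 11 of the 12 knockout and 8 of the 9 wild type broad peaks met another broad peak of their own list on the opposite strand. The peaks at these 2 windows were 564 and 524 bp long in the knockout list and 585 and 539 bp in the wild type list. Their folds were low in the knockout list, 1.64 and 1.63, the second being the lowest of all broad knockout peaks. In the wild type list they were 4.30 and 2.67. Reads of the copies may not be told apart, so the peaks of one copy are not independent of those of the other. In the ribosomal RNA gene regions on chromosome 21 and a scaffold there were 7 broad peaks in each list, all on the minus strand. So were 29 of 36 knockout and 41 of 45 wild type peaks of any length there. None of the broad ones on chromosome 21 lay within an annotated ribosomal RNA. Of the broad peaks, 4 of the knockout and 3 of the wild type ones were covered, beside 12 and 16 of the peaks of any length. The mitochondrial chromosome had 1 broad peak per list, on the plus strand at 14032 to 14559 in the knockout and 14012 to 14596 in wild type. A setting added after seeing the data left out the chromosome starts, this part of chromosome 2, the ribosomal RNA gene regions, mitochondria and all scaffolds. The last peaks of chromosomes and the chromosome 4 peak of the highest fold were kept. With it, 48.2% of 697 broad knockout and 47.4% of 762 broad wild type summits were covered by the other list, against 22.5% and 18.2% of narrower ones.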

How the data were processed

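The 8 samples are m6A immunoprecipitates (IP) and inputs of chromosome-associated RNA from METTL3-/- and parental HEK293T cells, with 2 replicates in each of 4 groups. Per the submitters' processing notes, MACS2 2.2.7.1, SAMtools 1.15.1 and HISAT2 2.2.1 were used with the build hg38; their order, the settings and the way replicates were joined are not given in the sources used here. The deposited lists, 1 per genotype, give each peak's bounds, strand and summit. The fold column holds the ratio of IP to local input at the summit base, on a linear scale, from the authors' peak caller. Significance is the deposited −log10 q. The deposited score column repeats the −log10 q on a display scale and was not used. Read depth is not given, so counting intervals refer to numbers of peaks.

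Peaks from 500 bp were taken as broad, by end minus start. A summit counted as shared where the other list had a peak over that base on the same strand. Genes came from the RefSeq table of GRCh38.p14, in which 794 of 59792 entries, listed with scaffold positions, were left out. A summit was assigned to coding and long noncoding genes on its strand or of no given strand; the table of gene starts gave the strand for 79.7% of coding and 63.6% of long noncoding genes. Shares of broad and narrower peaks were compared within each list by 2-sided Fisher's exact tests with Benjamini-Hochberg adjustment over 12 tests (threshold 0.05), and have 95% Clopper-Pearson intervals that cover counting error only. Length, fold, significance and summit offset come from the contrast that chose the members and were not tested. The lists carry no replicate values, so no test between genotypes was made. The functions were tested on simulated data. Python 3.11.15, numpy 2.4.6, pandas 2.3.3, SciPy 1.17.1 and matplotlib 3.10.9 were used. Alternatives changed the overlap rule, the windows, the genes, the length limit and the peaks included.

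The members, gene lists and tests were chosen with earlier results of these data known. Named are the 12 longest broad peaks of each list and the 10 longest broad pairs (1 per gene, summit in exactly 1 gene), genes with 3 or more broad peaks in a list, METTL3, HAT1, members of the 5 gene lists with a broad peak, and the broad peaks near an upstream gene end with the 6 highest folds in each list. The items on sequence that is hard to place are outside this rule and are said to have been chosen after their values were seen. Outside it too are the printed sequences and the genes named with them. These came from hairpins met on their own strand and long noncoding gene starts met in both lists.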

Additional observations from a re-analysis of the deposited data

How the results depend on the processing

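All values here are broad minus narrower shares in percentage points, knockout list before wild type list. The higher share of shared summits kept its direction and its call under the 7 alternatives that do not use the peak's own length in the overlap, between 13.7 and 32.2 points in the knockout list and between 17.6 and 34.7 in the wild type list. It was 33.7 and 37.7 with any overlap from 1 bp, which a longer peak reaches more often by its length alone, and 12.8 and 14.4 with 50% of both intervals. The higher share in coding gene bodies was not called with the 50% of peaks of higher −log10 q (0.587 and 3.84) or with broad peaks from 600 bp (4.25 and 5.09). Against peaks of 300 to 499 bp, an alternative chosen after seeing the data, it reversed in the knockout list (−0.0608) and was not called in the wild type list (3.08). With genes on either strand, also added later, it was not called in the knockout list (2.90). The lower share outside gene bodies was not called under the first 3 of these settings (−2.10, −3.62 and −0.426 in the knockout list, −1.71, −2.81 and −1.73 in the wild type list). The difference at upstream gene ends became a call in the knockout list with the peaks of higher −log10 q (−1.32) and against peaks of 300 to 499 bp (−1.53), and reversed with broad peaks from 400 bp (0.219). In the wild type list it reversed with a 200 bp window (−0.0215), with broad peaks from 400 bp (−0.0679) or 600 bp (−0.691) and against peaks of 300 to 499 bp (−0.307). At downstream gene ends it reversed in the knockout list with coding genes only (−0.0865), the peaks of higher −log10 q (−0.0183), broad peaks from 400 bp (−0.207) or 600 bp (−0.218) and without mitochondria and scaffolds (−0.0751), and in the wild type list with a 200 bp window (0.0237). With genes of given strand only, added later, the lower wild type share there became a call (−0.989). The higher share in long noncoding genes only became a call in the knockout list with the peaks of higher −log10 q (2.70). The cause was not tested. Of 88 comparisons with an alternative, 60 kept direction and side of the threshold. The planned share over exons was not run, since the gene table used here gives no exons. No paired analysis was possible because each list joins the replicates of a genotype and holds no value per replicate; for the same reason no replicate could be left out.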
